A study of Mus musculus with 21 samples.

Results

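Mouse embryonic fibroblasts (MEFs) of 2 fluorescent reporter lines received the same transcription factors, and the comparison asks how far the lines agree once reporter-positive cells are profiled. The factors were Spib, Irf8 and Ikzf2, a combination labelled SII and delivered by lentivirus. Members were chosen by the library named in each cell's identifier, which took every cell of the SII set in the hCD2 line and in the Clec9a line: 5163 of the 25991 deposited cells and 4 of the 21 libraries. The Clec9a line gave 2081 cells at day 3 and 643 at day 9, and the hCD2 line gave 1319 at day 3 and 1120 at day 9. The SI8 set (Spib and Irf8 without Ikzf2) also exists in both lines. Its hCD2 libraries were shallow, with medians of 2765 and 2786 UMIs per cell, so SI8 values stand beside the SII values and enter no test of the SII lines alone.

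The Clec9a line carried the genotype Clec9aCre/Cre Rosa26stopflox-tdTomato/tdTomato, and DAPI- tdTomato+ cells were sorted from it. The hCD2 line carried hCD2Cre/WT Rosa26stopflow-YFP/WT (spelled as in the labels), and DAPI- YFP+ cells were sorted. As written, Cre and reporter are homozygous in the Clec9a line and heterozygous in the hCD2 line. Line therefore goes together with the Cre driver, the number of Cre and reporter alleles, the fluorophore and the gate, and these cannot be told apart in any difference given here. The lines also differed in sex-linked transcripts, which are given below together with values within Xist cells. Transduced cells of both lines grew on gelatin in serum-containing medium. The controls were 2 libraries of wildtype MEFs without factors, sorted as live cells. There was 1 library for each line and day, and nothing in the labels says whether libraries came from separate cultures or embryos, so the p-values rest on library-to-library scatter that can be technical.

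As background, a reporter of this kind stays dark until Cre cuts out a stop cassette in the Rosa26 locus, after which the cell and its progeny fluoresce. Cre in the Clec9a gene marks dendritic cell (DC) precursors and their progeny. Clec9a encodes a receptor for dead cells that conventional DCs of type 1 (cDC1) carry. Human CD2 regulatory sequences are best known for driving transgenes in lymphocytes. Spib is an ETS factor of plasmacytoid DCs (pDCs) and B cells, Irf8 is required for cDC1 development, and Ikzf2 encodes HELIOS, an Ikaros zinc finger protein.

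The 4 libraries were deep, with totals of 29149395 to 89394715 UMIs and medians of 39646 to 54413.5 UMIs per cell. Levels are given as CPM (the UMIs of a gene divided by all UMIs of its library, on the usual scale), and intervals are 95% intervals for counting error only. In these summed counts, fewer cells with a transcript and less transcript per cell cannot be told apart. The Clec9a line at day 9 stood apart in quality: 20.995% of its cells held under 10000 UMIs, against 0.379% to 3.571% in the other libraries, and transcripts that mark degraded or ribosomal RNA (Gm42418, AY036118 and Lars2) took 0.593% of its UMIs, against 0.146% in the hCD2 line at day 9 and 0.350% and 0.355% at day 3. The day 3 libraries shared 1 cell barcode and the other pairs 0. The labelled cell type was fibroblast. Genes of fibroblasts and matrix summed to 2465 and 2917 CPM at day 3 and 5660 and 6485 CPM at day 9 (within a day the order is Clec9a line, hCD2 line, here and wherever a sentence names no line), against 36523 and 36131 CPM in wildtype MEFs. Pan-haematopoietic genes summed to 2463, 1886, 1782 and 1856 CPM in the same libraries, against 250.1 and 253.5 CPM in MEFs.

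The difference that survived a test across all genes lay at the reporter locus and on the Y chromosome. With edgeR's quasi-likelihood test over the 4 libraries, with day as a covariate, 3 of 14874 genes had an adjusted p under 0.05 (0.0202%). All 3 were lower in the hCD2 line at both days: Gt(ROSA)26Sor, Ddx3y and Eif2s3y. At an unadjusted p under 0.05 there were 390 higher and 351 lower genes, and DESeq2 called 33 higher (0.263%) and 48 lower (0.382%) of 12567 genes. Single libraries were left out only in a fit pooled over 14 transduced libraries. That fit called 0 genes with all 4 libraries in it, so leaving out libraries says nothing of stability.

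Gt(ROSA)26Sor is the noncoding transcript of the Rosa26 locus, where the floxed reporters sit (mm10, chr6:113067428-113077333, minus strand). It stood at 207 and 213 CPM in the Clec9a line at day 3 and day 9 and at 13.3 and 11.1 CPM in the hCD2 line. The level was 15.5-fold lower in the hCD2 line at day 3 and 19.1-fold lower at day 9, with a fitted log2 difference of -4.11 ± 0.13 (SE; edgeR adjusted p = 0.0051). Wildtype MEFs lay at 11.6 and 11.003 CPM, so the hCD2 line was near the controls and the Clec9a line far above them. Across the series, 11 of the 12 transduced libraries of the Clec9a line held 60.7 to 213 CPM, the exception being the library labelled PI8 day 9 with 17.0 CPM, and the 4 libraries of the hCD2 line held 1.75 to 13.3 CPM. Transcripts of tdTomato, YFP, Cre and human CD2 were not analysed here.

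Setd5, a chromatin regulator, starts 32 bases beyond the other end of Gt(ROSA)26Sor and is read in the opposite direction (chr6:113077365-113153435, plus strand). Its levels were 128 and 97.1 CPM in the Clec9a line and 70.7 and 58.3 CPM in the hCD2 line, with 121 and 123 CPM in MEFs. The fitted difference of -0.80 ± 0.11 was not called by edgeR (adjusted p = 0.386) and was called by DESeq2 (adjusted p = 0.000194). The SII hCD2 libraries lay below the SII Clec9a libraries at both days. Across the series the ranges overlapped, with 49.1 to 128 CPM in the 12 transduced Clec9a-line libraries and 15.7 to 70.7 CPM in the 4 hCD2-line libraries. Outside SII the highest Clec9a-line library held 67.8 CPM. SI8 stood at 50.3 and 67.5 CPM in the Clec9a line and 23.6 and 15.7 CPM in the shallow hCD2 libraries. Thumpd3, which encodes a tRNA methyltransferase and overlaps the far end of Gt(ROSA)26Sor by 846 bases (chr6:113046225-113068273, plus strand), stood at 18.2 and 23.1 CPM in the Clec9a line and 23.5 and 24.5 CPM in the hCD2 line, and the lines were not separated (0.22 ± 0.14, adjusted p = 1). Whether the authors' counting used strand is not given in the sources used here, so reads in the overlap are uncertain.

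The Clec9a gene itself was read in the hCD2 line and hardly at all in the Clec9a line (chr6:129408862-129424763, plus strand). It had 188 and 49 UMIs in the hCD2 line at day 3 and day 9, or 2.59 and 0.804 CPM, and 2 and 0 UMIs in the Clec9a line. Over both days the ratio was 105 (counting interval 28.8 to 874) in favour of the hCD2 line. In SI8 the order was the same, with 14.8 and 8.81 CPM in the hCD2 line against 0 and 0.115 CPM, while splenic cDC1 held 336 CPM. edgeR did not call the gene (adjusted p = 0.238) and DESeq2 did (adjusted p = 0.000147). Even in the hCD2 line a Clec9a UMI was seen in 6.596% of day 3 cells (5.32% to 8.07%) and 3.12% of day 9 cells (2.19% to 4.32%), against 0.0961% and 0% in the Clec9a line, where a count of 0 in 643 cells (3 counts as the limit) allows a share of cells with a UMI of up to 0.467%. Wildtype MEFs had 0 UMIs. With cells thinned to 5000 UMIs the shares were 1.06% and 0.911% against 0.0482% and 0%. In the published strain the Cre sits within Clec9a, which the labels give here as homozygous; whether the allele sets these counts was not tested.

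The sequence below is shown because Spib belongs to the ETS family, whose members bind a GGAA core, and because it covers the start of the gene whose activity the Clec9a reporter reads. It runs from 250 bases before to 50 bases after the annotated start (RefSeq, GRCm38.p6, chr6:129408612-129408911, plus strand) and lies within the annotated span of the neighbouring lectin gene Clec1b. Capitals mark the ETS core GGAA or its complement TTCC.
Clec9a promoter: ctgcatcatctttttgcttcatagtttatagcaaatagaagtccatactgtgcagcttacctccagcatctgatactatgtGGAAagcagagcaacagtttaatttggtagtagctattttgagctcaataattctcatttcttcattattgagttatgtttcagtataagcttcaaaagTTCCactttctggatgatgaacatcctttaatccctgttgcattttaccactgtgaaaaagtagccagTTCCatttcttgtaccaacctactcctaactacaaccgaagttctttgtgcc
The window was 37.0% G or C and held 3 ETS cores, which is a weak description because 95.98% of 32851 mouse promoters of this length held at least 1. The longer motifs searched on both strands were not among its letters: the purine-rich ETS motif GAGGAA (in 28.28% of promoters), the composite ETS-IRF motif GGAANNGAAA (2.715%) and TGGGAA, a core bound by Ikaros proteins (25.56%). The first and second of these contain GGAA, as does the last.

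Clec12a, an inhibitory lectin receptor of myeloid cells and pDCs, ends 43559 bases before Clec9a (chr6:129342691-129365303, plus strand) and was expressed in both lines. It stood at 221 and 229 CPM in the Clec9a line and 118 and 129 CPM in the hCD2 line, and at 0 in wildtype MEFs. The level was 1.87-fold lower in the hCD2 line at day 3 and 1.78-fold lower at day 9 (fitted -0.87 ± 0.10). The gene was not called by edgeR (adjusted p = 0.314) and was called by DESeq2 (adjusted p = 2.5e-06). In SI8 the hCD2 line was lower at day 3 (138 against 213 CPM) and level with the Clec9a line at day 9 (219 against 221 CPM). Other members of the list of reporter loci were near the floor: Clec1b at 0.361 to 0.604 CPM, Clec1a at 0.0657 to 0.138 CPM, Clec12b at up to 0.0336 CPM and mouse Cd2, an adhesion receptor of lymphocytes, at 0.0276 to 0.103 CPM from 2 to 5 UMIs.

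**Figure D1:**
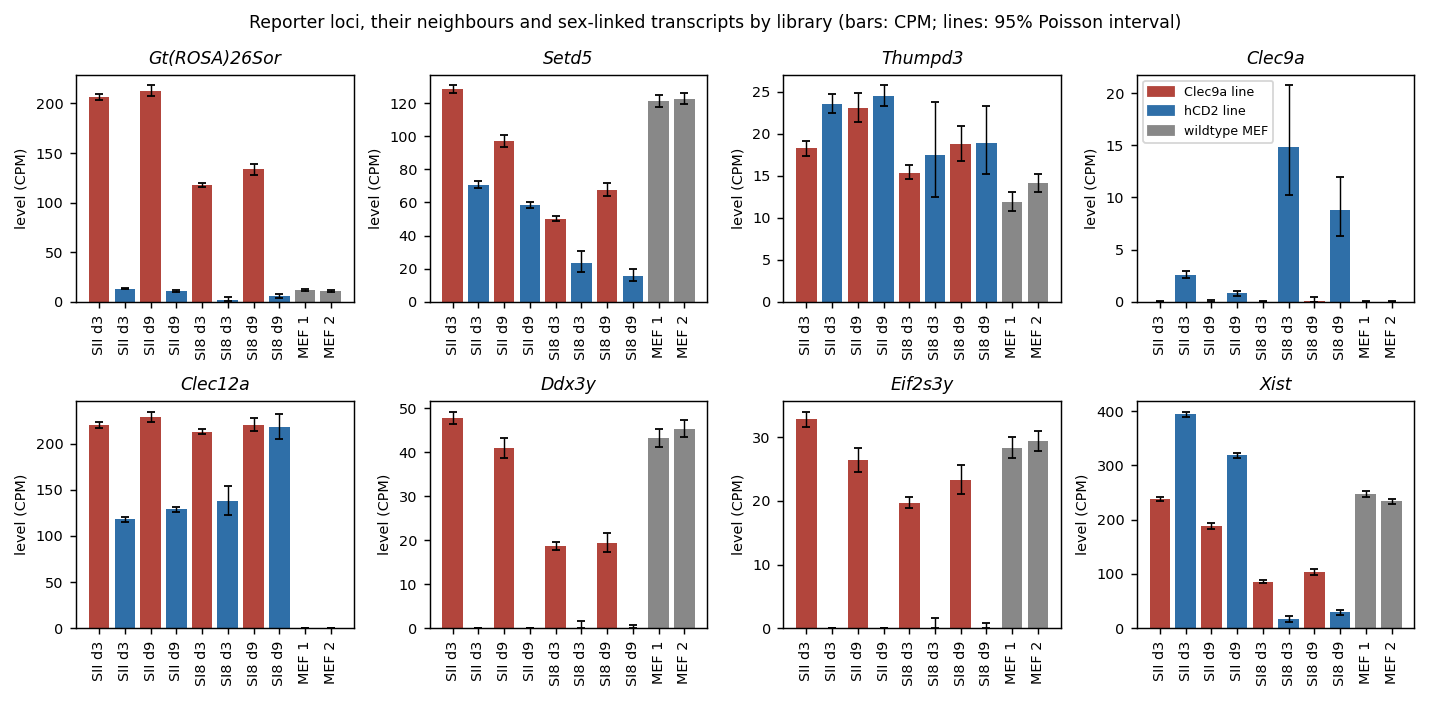
Levels in CPM of reporter-locus genes, their neighbours and sex-linked transcripts in the SII and SI8 libraries of both lines and in the MEF libraries (d3, day 3; d9, day 9). Bars are single libraries and error lines are 95% Poisson intervals for counting error; Gt(ROSA)26Sor is above 200 CPM in both SII libraries of the Clec9a line and under 14 CPM in those of the hCD2 line, and Ddx3y and Eif2s3y are at 0 to 0.0138 CPM in the SII libraries of the hCD2 line.

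Y-linked transcripts came from the Clec9a line, apart from 1 UMI. Ddx3y, an RNA helicase gene, had 4272 and 1192 UMIs there and 0 in both hCD2 libraries, which puts it at least 2050-fold lower in the hCD2 line (floor of 3 counts over both libraries; edgeR adjusted p = 0.0091). Eif2s3y, a translation initiation factor gene, had 2936 and 770 UMIs against 1 and 0, a ratio of 4172 (748 to 164838; adjusted p = 0.0051). Uty and Kdm5d, which encode histone demethylase family proteins, had 752 and 623 UMIs in the Clec9a line at day 3 and 164 and 157 at day 9, and 0 in the hCD2 line. They were at least 344-fold and at least 293-fold lower there, with adjusted p of 0.103 and 0.108. The 4 genes summed to 8583 and 2283 UMIs in the Clec9a line and to 1 and 0 in the hCD2 line.

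Xist, the RNA that silences an X chromosome in female cells, was present in both lines. It stood at 238 and 188 CPM in the Clec9a line and 394 and 319 CPM in the hCD2 line, 1.66-fold and 1.70-fold higher in the latter (0.74 ± 0.10, edgeR adjusted p = 0.386). SI8 had the opposite order, at 85.8 and 103 CPM in the Clec9a line and 16.6 and 28.8 CPM in the shallow hCD2 libraries. At day 3 and day 9, 49.3% and 45.4% of Clec9a-line cells had a Y-linked UMI, against 0.0758% and 0% of hCD2-line cells and 49.0% and 52.7% of wildtype MEF cells. Cells with Xist and no Y-linked UMI made up 47.2% and 49.6% of the Clec9a libraries and 97.5% and 93.9% of the hCD2 libraries. Cells with both kinds of UMI made up 9.995% and 19.1% of the Clec9a libraries, against 3.57% and 3.70% in MEFs and 0.0758% and 0% in the hCD2 libraries. With cells thinned to 5000 UMIs the shares with both were 1.25% and 6.81% in the Clec9a line and 0.685% and 0.579% in MEFs, so these classes describe which UMIs were seen in a cell. Why some cells had both was not tested.

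That mixture allowed a comparison within the Clec9a line. In its day 3 library, 983 cells with Xist and no Y-linked UMI and 817 cells with a Y-linked UMI and no Xist held 205 and 211 CPM of Gt(ROSA)26Sor, and in its day 9 library 319 and 169 such cells held 221 and 202 CPM. Clec12a stood at 217 and 232 CPM at day 3 and 216 and 253 CPM at day 9, and Ednrb, described below, at 6.45 and 5.80 CPM and at 97.4 and 87.5 CPM. Other genes were less alike in the classes at day 3. Nts stood at 21.2 CPM in Xist cells and 2.99 CPM in Y-linked cells, Apoe at 28.8 and 47.9 CPM, and Hoxd13 at 35.0 and 49.3 CPM. Whether the sex of the cells contributes to any line difference was not tested. With the fit restricted to Xist cells without Y-linked UMIs, an alternative added after the data were seen, 0 genes were called (lowest adjusted p = 0.0615), and Gt(ROSA)26Sor stood at 205, 13.3, 221 and 11.4 CPM in the order Clec9a day 3, hCD2 day 3, Clec9a day 9, hCD2 day 9.

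The delivered factors were read in both lines, at higher levels in the hCD2 line at day 3. Ikzf2 stood at 91.1 and 105 CPM at day 3 and at 26.9 and 26.8 CPM at day 9, against 10.1 and 9.71 CPM in MEFs. Its log2 difference was 0.20 at day 3 (counting interval 0.16 to 0.25) and -0.01 at day 9 (-0.13 to 0.12). Irf8 stood at 79.4 and 94.5 CPM and then at 25.5 and 22.1 CPM, and Spib at 22.8 and 32.3 CPM and then at 27.8 and 24.8 CPM. The widest of these gaps was that of Spib at day 3, with a log2 difference of 0.50 (0.41 to 0.58). Each factor was higher in the hCD2 line at day 3. At day 9 Irf8 and Spib were lower in it and Ikzf2 was level. edgeR separated the lines for none of the factors (differences of 0.02 to 0.16 with standard errors of 0.12 to 0.19, adjusted p = 1). Counts cannot tell viral from endogenous transcripts.

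Per cell, every day 3 cell held an Ikzf2 UMI. Among 2081 Clec9a-line cells, 0 had no Ikzf2 UMI, 481 had 1 and 428 had 2, and among 1319 hCD2-line cells the counts were 0, 194 and 218. At day 9 an Ikzf2 UMI was found in 55.1% and 59.1% of cells, with 289 of 643 and 458 of 1120 cells at 0. A distribution that starts at 1 in both day 3 libraries has no counterpart at day 9 or in MEFs, where 16.5% and 21.2% of cells had an Ikzf2 UMI. Whether cells were selected on this transcript before deposit is not given in the sources used here. All 3 factors were seen together in 48.5% and 69.8% of cells at day 3 and in 25.97% and 27.86% at day 9, in libraries whose median depths at day 3 were 39646 and 53062 UMIs. With cells thinned to 5000 UMIs the day 3 shares with a UMI lay closer together, at 10.9% and 14.1% for Spib, 29.4% and 34.5% for Irf8 and 36.5% and 38.7% for Ikzf2. In cells with an Ikzf2 UMI alone, an alternative added after the data were seen, edgeR called 2 genes.

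**Figure D2:**
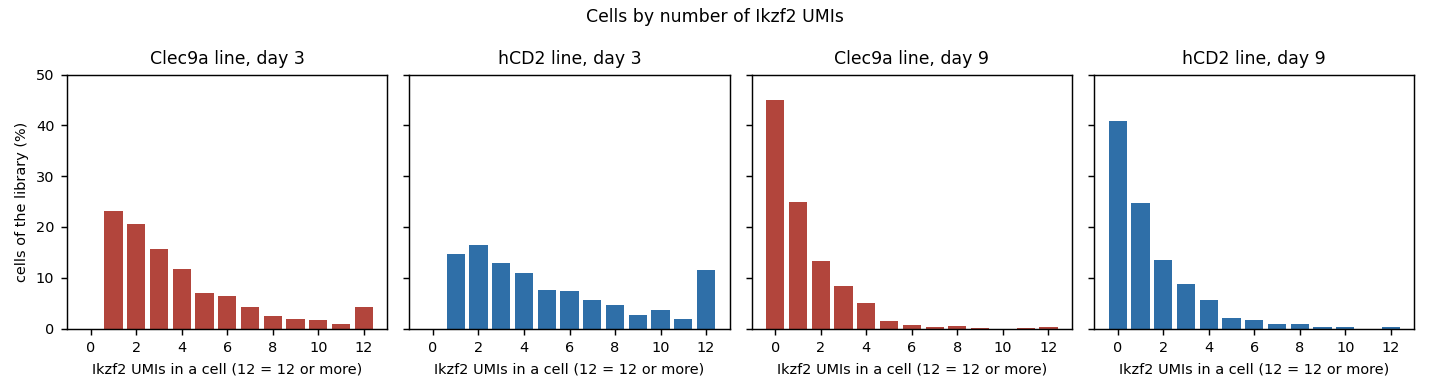
Share of cells (%) with each number of Ikzf2 UMIs in the 4 SII libraries; the last bar holds cells with 12 or more. Both day 3 libraries have no cell at 0, whereas 289 of 643 cells (Clec9a line) and 458 of 1120 cells (hCD2 line) are at 0 at day 9.

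Beyond these loci, few genes kept a large line difference from day 3 to day 9. Of 5723 genes with a mean of at least 20 CPM over the 4 libraries, 58 were at least 2-fold higher (1.01%) and 77 at least 2-fold lower (1.35%) in the hCD2 line at day 3, and 21 were higher (0.367%) and 38 lower (0.664%) at day 9. Only 8 passed 2-fold the same way at both days, 3 higher (0.0524%) and 5 lower (0.0874%), and 9 passed it in opposite ways. Of the 135 genes past 2-fold at day 3, 61 had the same direction at day 9, and of the 59 at day 9, 31 had the same direction at day 3. Over the 5723 genes the log2 differences of the days had a Pearson correlation of 0.139 and a Spearman correlation of -0.040, as a description across genes that share 4 libraries. The MEF libraries differed 2-fold in 0 of 5428 genes. They held untransduced cells sorted without a reporter gate, so they do not measure the spread between transduced, sorted libraries. The median absolute log2 difference was 0.119 and 0.112 between lines and 0.039 between MEF libraries. More genes differed between the days than between the lines: 571 differed at least 2-fold between day 3 and day 9 in the Clec9a line and 542 in the hCD2 line. The days also differed in Ikzf2, with a UMI in every day 3 cell and in 55.1% and 59.1% of day 9 cells. The part of this in the day counts was not tested.

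The 3 genes higher at both days were Ednrb, Dlk1 and Hoxb9, and the 5 lower ones were Nts, Apoe, Ccl5, Gt(ROSA)26Sor and Ddx3y. Ednrb encodes the endothelin B receptor. It stood at 5.53 and 20.3 CPM at day 3 and 105 and 459 CPM at day 9, which is 3.68-fold and 4.35-fold higher in the hCD2 line (2.00 ± 0.12, edgeR adjusted p = 0.0613; DESeq2 adjusted p = 2e-29). With each cell thinned to 5000 UMIs the day 9 levels were 162 and 400 CPM, a smaller gap. SI8 showed the same order at both days (2.09 and 10.9 CPM, then 17.1 and 58.3 CPM).

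Dlk1, an imprinted membrane protein related to NOTCH ligands, stood at 91.2 and 356 CPM at day 3 and at 11.7 and 177 CPM at day 9, so its gap widened from 3.91-fold to 15.2-fold (2.91 ± 0.50, adjusted p = 0.544). Nts, the neurotensin precursor, went the other way. It stood at 11.8 and 3.65 CPM at day 3 and at 942 and 176 CPM at day 9, 3.22-fold and 5.36-fold lower in the hCD2 line (-2.08 ± 0.19, adjusted p = 0.238). The shallow cells of the Clec9a line at day 9 were rich in it: thinned to 5000 UMIs per cell, the day 9 levels were 1937 and 162 CPM, and among cells of at least 10000 UMIs they were 805 and 176 CPM.

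Apoe, a lipid carrier, stood at 35.9 and 13.6 CPM and then at 414 and 190.0 CPM. The chemokine gene Ccl5 stood at 32.6 and 15.2 CPM and then at 93.8 and 24.8 CPM. Both were lower in the hCD2 line at both days and neither was called by edgeR (adjusted p of 0.238 and 0.386). With cells thinned to 5000 UMIs, an Apoe UMI was found in 20.9% and 18.5% of day 9 cells. A Ccl5 UMI was found in 28.4% and 2.82% of them. The size of the day 9 gaps depended on the cells taken. With each cell thinned to 5000 UMIs, Apoe stood at 287 and 202 CPM at day 9, a smaller gap. Ccl5 stood at 252 and 28.4 CPM in thinned cells, a wider gap, and at 41.2 and 19.7 CPM in cells with an Ikzf2 UMI, a smaller one. In SI8, 6 of the 8 genes had the same direction at both days, where 50.7% of all genes of at least 20 CPM were lower and 21.8% higher at both days. The exceptions were Nts, which was higher in the hCD2 line at day 9 (0.59), and Apoe, which was higher at day 3 (0.65).

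**Figure D3:**
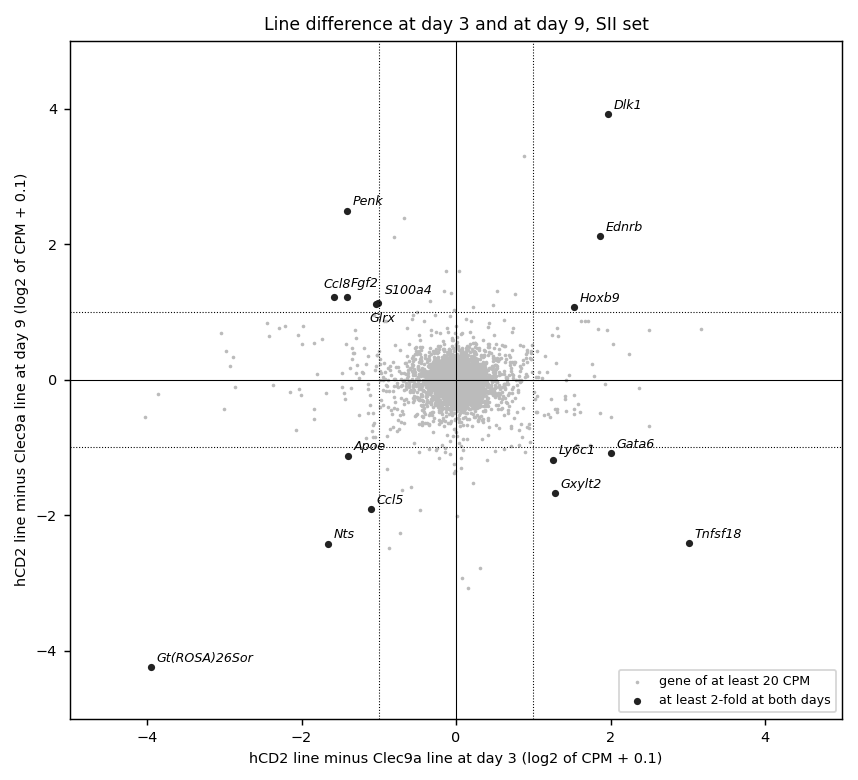
Line difference (hCD2 minus Clec9a line, log2 of CPM + 0.1) at day 3 on the x axis and at day 9 on the y axis for 5722 genes of at least 20 CPM; Ddx3y lies outside the axes. Dotted lines mark 2-fold and black points are genes past it at both days, 7 of them in the corners of agreement and 9 in the corners of disagreement.

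Among the genes DESeq2 called and edgeR did not, the following were picked after their values were seen. Higher in the hCD2 line were the growth factor Wnt5a (16.3 and 50.2 CPM, then 145 and 263 CPM), Wnt4 (0.794 and 2.33 CPM, then 10.1 and 65.5 CPM), the heparin-binding cytokine Ptn (0.582 and 2.05 CPM, then 3.53 and 39.7 CPM) and the activin inhibitor Fst (3.04 and 10.2 CPM, then 26.6 and 48.2 CPM). Lower were Mpeg1, a pore-forming protein of phagocytes (483 and 345 CPM, then 255 and 162 CPM), the protease Ctsh (518 and 372 CPM, then 473 and 226 CPM) and the pDC and B cell nuclease Pld4 (415 and 254 CPM, then 224 and 145 CPM). DESeq2's adjusted p for these ran from 3.1e-06 to 0.0117, while edgeR's were 0.386 to 0.611.

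The gene lists are described by counts and medians at each day, and 0 members of any list were called in the test of line by day given at the end. The reference values are medians over all tested genes of 0.02 at day 3 and 0.00 at day 9 (hCD2 minus Clec9a line, log2 of CPM + 0.1), with 53.5% of genes higher at day 3, 46.5% lower at day 3 and 49.9% higher at day 9. Higher at both days were 25.7% of genes and lower at both days 22.2%. By edgeR, 390 of the 14874 tested genes were higher and 351 lower at an unadjusted p under 0.05.

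Interferon response genes, which encode antiviral effectors and their regulators, gave the lowest day 3 median. Of 16 tested, 15 were lower in the hCD2 line at day 3 (median -1.28), and 11 were higher in it at day 9 (median 0.22). None was called and none had an unadjusted p under 0.05. Irf7, an inducer of interferon genes, stood at 321 and 115 CPM at day 3 and 119 and 127 CPM at day 9. For Irf7 the Clec9a line at day 3 was the high library and the other 3 lay close together. Other members had another order, such as Isg15, a ubiquitin-like protein, at 93.9 and 36.8 CPM and then 92.3 and 128 CPM. Isg15, Zbp1, a nucleic acid sensor, and Ifit1, which blocks viral RNA translation, were chosen after their values were seen. Zbp1 stood at 20.8 and 2.61 CPM at day 3 and 7.44 and 17.9 CPM at day 9, and Ifit1 at 30.9 and 7.17 CPM and then 5.87 and 10.2 CPM. The exception at day 3 was Cxcl10, at 33.3 and 47.3 CPM. Wildtype MEFs summed to 6675 and 6562 CPM over these genes, above all 4 libraries (1403, 801, 783 and 934 CPM).

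Of the MHC class I presentation genes, 12 of 13 were lower at day 3 (median -0.41) and 7 of 13 higher at day 9 (median 0.01). B2m, the light chain of class I molecules, stood at 2366 and 1625 CPM and then at 2143 and 2389 CPM. H2-D1, a class I heavy chain, stood at 1086 and 599 CPM and then at 791 and 870.3 CPM, and the H2 genes are uncertain because near-identical copies can share reads. MHC class II genes were lower at day 3 in 9 of 11 cases (median -0.48) and at day 9 in 7 (median -0.79), but the day 9 median was 0.33 when cells were thinned. Cd74, the invariant chain and the most abundant of them, stood at 665 and 365 CPM and then at 174 and 31.0 CPM, while H2-Aa, H2-Ab1 and the class II regulator Ciita were under 6 CPM in every library, far below splenic DCs. The protease Ctss stood at 55.9 and 28.2 CPM and then at 40.6 and 44.4 CPM.

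**Figure D4:**
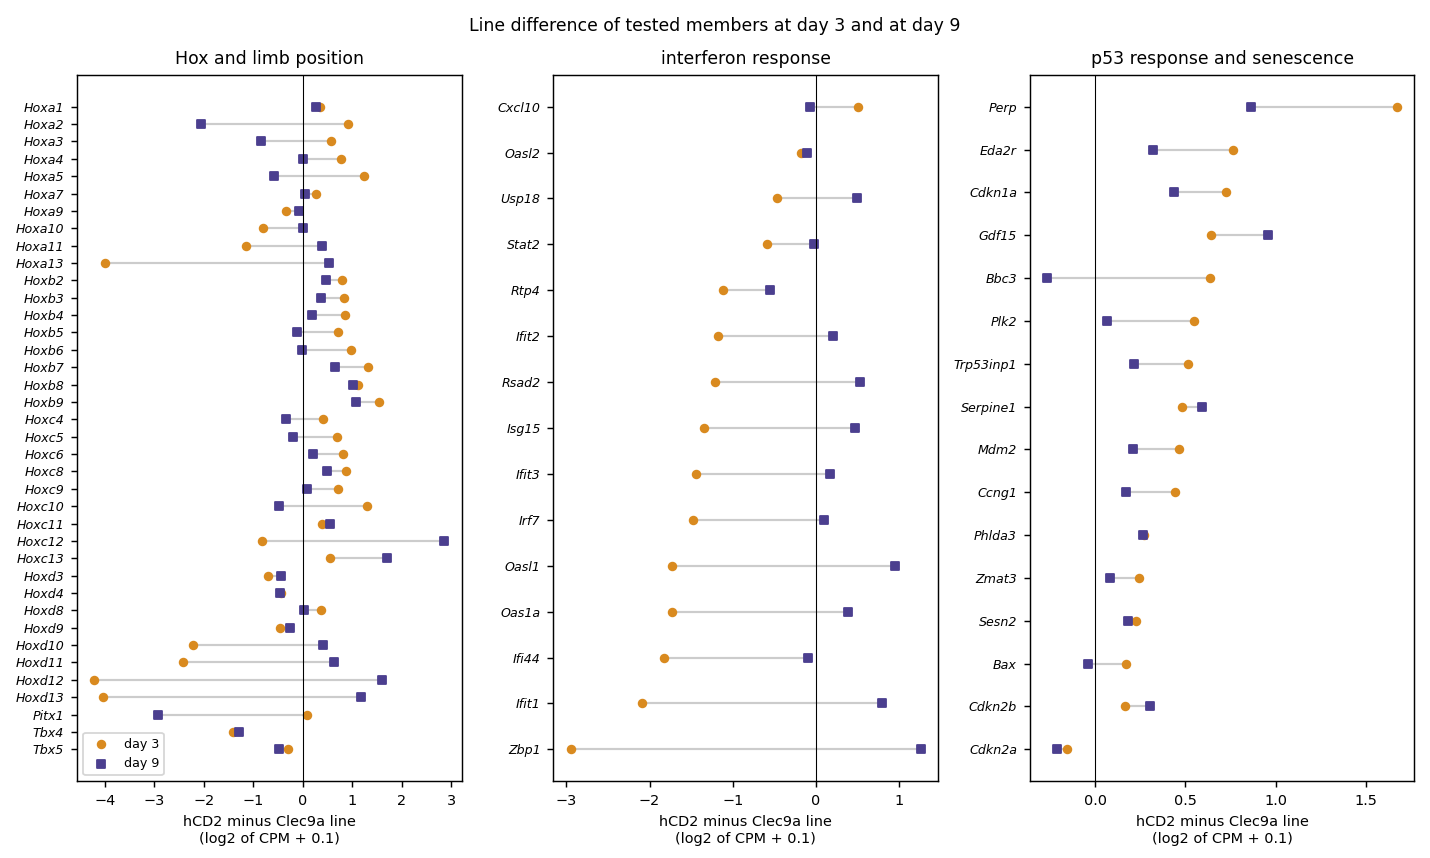
Line difference (hCD2 minus Clec9a line, log2 of CPM + 0.1) of tested genes of 3 lists at day 3 (circles) and at day 9 (squares), each point being 1 pair of libraries. In the interferon list, drawn without 1 tested gene, 14 of 15 circles are left of 0 and 10 of 15 squares right of it, and 13 of 16 genes of the p53 list are right of 0 at both days.

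Pan-haematopoietic genes were lower in 14 of 17 cases at day 3 (median -0.48) and 9 at day 9 (median -0.03), and 0 were called. Ptprc, the CD45 phosphatase that defines leukocytes, gave the widest gap. It stood at 317 and 98.4 CPM at day 3, 3.22-fold lower in the hCD2 line, and at 74.1 and 64.7 CPM at day 9, 1.15-fold lower (-0.95 ± 0.37, adjusted p = 1). With cells thinned to 5000 UMIs, a Ptprc UMI was found in 61.2% (59.1% to 63.3%) and 27.4% (25.02% to 29.91%) of cells at day 3 and in 17.2% (14.3% to 20.4%) and 15.3% (13.2% to 17.6%) at day 9. Unthinned shares were 90.6%, 60.4%, 33.7% and 30.0%, and MEFs had 0 UMIs. Of the 8 tested members with a mean of at least 20 CPM, 2 were at least 2-fold lower at day 3 and 0 at day 9. Some abundant members had much smaller gaps at day 3 than Ptprc. Arhgdib stood at 894 and 810 CPM and then at 649 and 634 CPM. Plek stood at 358 and 256 CPM and then at 352 and 373 CPM, and the tetraspanin Cd53 at 237 and 239 CPM and then at 395 and 464 CPM.

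Lists of DC subsets leaned the same way at day 3. Of 11 cDC1 genes 9 were lower (median -0.88), including Naaa, a lysosomal amidase (141 and 83.9 CPM, then 37.4 and 24.7 CPM), and Ppt1, a lysosomal thioesterase (298 and 161 CPM), which was level at day 9 (247 and 247 CPM). Of 6 tested cDC2 genes all were lower at day 3 and 5 at day 9, with the integrin Itgam at 41.1 and 40.3 CPM and then 22.8 and 13.7 CPM. Of 9 pDC genes 6 were lower at each day (medians -0.35 and -0.14). Bst2, an antiviral tether, stood at 1171 and 762 CPM and then at 800 and 828 CPM, and Tcf4, the E protein of pDCs, at 208 and 150 CPM and then 263 and 238 CPM. Siglech, the defining pDC lectin, had 0 UMIs in all 4 libraries.

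Chemokine and macrophage genes had medians of opposite sign at the days, and 0 of them passed the test of line by day. In the cytokine and chemokine list 10 of 15 were lower at day 3 (median -0.69) and 10 higher at day 9 (median 0.47). Ccl2, a monocyte attractant and the most abundant, did not follow the list: it stood at 383 and 238 CPM and then at 1818 and 1276 CPM, lower in the hCD2 line at both days. In the macrophage list 8 of 11 were lower at day 3 and 8 higher at day 9 (medians -0.86 and 0.22). Spp1, the matrix cytokine osteopontin, stood at 90.3 and 43.3 CPM and then at 988 and 1909 CPM, and Lgals3, the lectin galectin-3, at 624 and 429 CPM and then at 899 and 993 CPM. C1qa, a complement gene of resident macrophages, had 0 UMIs in all 4 libraries. With cells thinned to 5000 UMIs the macrophage median at day 3 was -0.10.

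**Figure D5:**
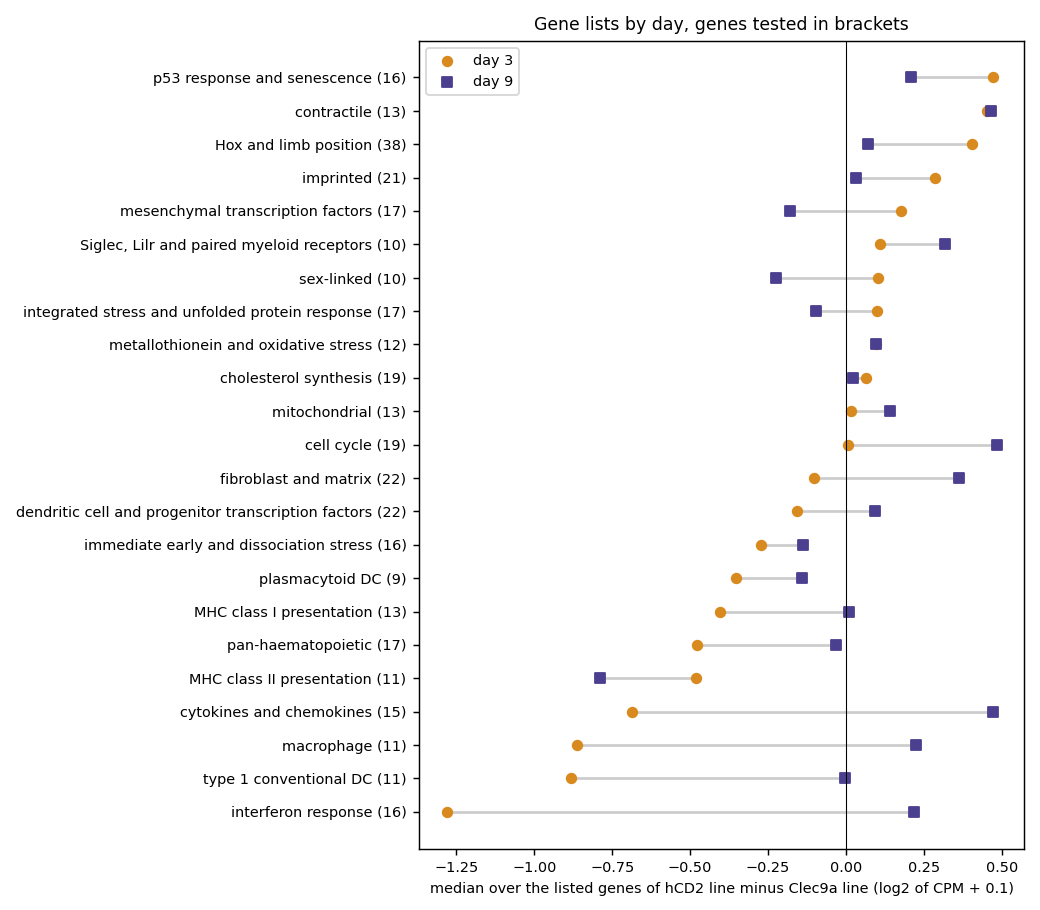
Median line difference (hCD2 minus Clec9a line, log2 of CPM + 0.1) of each gene list with at least 9 tested members, at day 3 (circles) and at day 9 (squares); numbers in brackets are genes tested. The interferon list goes from -1.28 to 0.22, the p53 list is above 0.2 and the contractile list above 0.4 at both days, and all tested genes have medians of 0.02 and 0.00.

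Of the stromal lists, the contractile one had medians above 0 at both days. Contractile genes, which build the actin and myosin apparatus of smooth muscle and myofibroblasts, were higher at both days in 9 of 13 cases (medians 0.45 and 0.46), 5 of them with an unadjusted p under 0.05 and 0 called. Tagln, an actin cross-linker, stood at 20.1 and 69.4 CPM at day 3 and at 124 and 129 CPM at day 9, and Acta2, smooth muscle actin, at 15.97 and 23.08 CPM and then 38.8 and 96.6 CPM. Neither of the most abundant members showed that lean strongly, with Cnn2 at 357 and 349 CPM and then 240.1 and 231 CPM and Tpm1 at 160.3 and 173 CPM and then 203 and 230 CPM. At day 9 the contractile median was 0.15 in Xist cells without Y-linked UMIs and 0.23 in cells with an Ikzf2 UMI. Fibroblast and matrix genes had medians of -0.10 and 0.36, with 12 of 22 lower at day 3, and mesenchymal transcription factors had medians of 0.18 and -0.18, with 9 of 17 lower at day 9. Fn1, fibronectin, stood at 1127 and 1739 CPM and then at 3952 and 4300 CPM, and Col1a2, a chain of collagen type I, at 747 and 528 CPM and then at 186 and 164 CPM.

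Hox genes, which record the position of a fibroblast along the body axis and the limb, did not all differ the same way at day 3. Of 38 genes in the Hox and limb list, 14 were higher at both days (medians 0.40 and 0.07), and 0 were called by edgeR. All 8 genes from Hoxb2 to Hoxb9 were higher in the hCD2 line at day 3 and 6 at day 9. They summed to 84.8 and 176 CPM and then to 130 and 192 CPM, against 1.16 and 0.604 CPM in wildtype MEFs. Hoxb9 stood at 13.7 and 39.8 CPM and then at 30.8 and 64.8 CPM (1.30 ± 0.15, edgeR adjusted p = 0.314; DESeq2 adjusted p = 1.3e-06). Of the 6 genes from Hoxc4 to Hoxc10, all were higher in the hCD2 line at day 3 and 3 at day 9. They summed to 222 and 402 CPM and then to 242 and 252 CPM, led by Hoxc9 at 83.1 and 137 CPM and then 55.3 and 58.8 CPM.

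The distal limb genes did the reverse at day 3. Hoxd10 to Hoxd13 and Hoxa13 summed to 192 CPM in the Clec9a line and 28.002 CPM in the hCD2 line, 5 of 5 lower, and at day 9 to 64.0 and 107 CPM, 5 of 5 higher. Hoxd13 stood at 41.2 and 2.43 CPM and then at 10.3 and 23.5 CPM, and wildtype MEFs summed to 161 and 159 CPM over these genes. These groups within the list were formed after the values were seen and leave out other genes of the list.

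Genes of the p53 response and senescence were higher in the hCD2 line at both days in 13 of 16 cases (medians 0.47 and 0.21), 8 with an unadjusted p under 0.05 and 0 called. Cdkn1a, the cell cycle inhibitor p21, stood at 402 and 666 CPM and then at 1015 and 1374 CPM (0.58 ± 0.11, edgeR adjusted p = 0.564; DESeq2 adjusted p = 0.0267). Cdkn2a, the p16 and p19 locus, was the gene lower at both days, at 443 and 398 CPM and then 863 and 746 CPM. With cells thinned to 5000 UMIs 7 of 16 were higher at both days, and the day 9 median was near 0. In the cell cycle list 10 of 19 were higher at day 3 and 16 at day 9 (medians 0.01 and 0.48), from low levels: Top2a, a topoisomerase of dividing cells, stood at 7.21 and 5.75 CPM and then at 2.37 and 7.81 CPM, and Mki67 at 0.481 and 0.372 CPM and then at 0.137 and 2.56 CPM.

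Immediate early genes, which respond within minutes to stimulation or dissociation, were lower at both days in 8 of 16 cases (medians -0.27 and -0.14), 5 with an unadjusted p under 0.05. Junb stood at 400 and 273 CPM and then at 314 and 254 CPM, and Fosb, chosen after its values were seen, at 9.45 and 2.81 CPM and then at 9.16 and 3.02 CPM (-1.68 ± 0.20, edgeR adjusted p = 0.314). Imprinted genes had medians of 0.29 and 0.03, with 10 of 21 higher at both days, but the list was not uniform. Meg3, a maternally expressed noncoding RNA of the Dlk1 locus, stood at 723 and 901 CPM and then at 506 and 647 CPM, while the maternally expressed H19 stood at 0.515 and 0.262 CPM and then at 18.1 and 2.68 CPM. Genes of cholesterol synthesis (medians 0.06 and 0.02), stress and unfolded protein response (0.10 and -0.09) and metal and oxidative stress (0.10 and 0.10) stayed near the medians of all genes.

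Markers of other cell types were at low summed levels in most lists. In the T and B lymphoid list 9 of 19 genes had 0 UMIs in all 4 libraries and the list summed to 20.1 and 12.7 CPM at day 3 and to 17.1 and 15.7 CPM at day 9. Endothelial genes summed to 0.425 and 2.37 CPM and then to 1.27 and 1.92 CPM, and neutrophil and mast cell genes to 6.73 and 11.2 CPM and then to 11.8 and 33.8 CPM. Erythroid and megakaryocyte genes summed to 5.27 and 8.01 CPM and then to 35.9 and 24.05 CPM, neural and glial genes to 7.99 and 16.2 CPM and then to 26.3 and 13.9 CPM, and muscle genes to 0.313 and 0.538 CPM and then to 0.0343 and 4.15 CPM. The epithelial list was the highest of these, at 50.3 and 73.3 CPM and then 105 and 82.02 CPM, against 2.32 and 1.85 CPM in MEFs.

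Whether the line difference itself changed between the days was tested over 14 transduced libraries, since the 4 libraries alone leave no residual degree of freedom. They include the library labelled PI8 day 9, which had 1 Y-linked UMI and little Gt(ROSA)26Sor. edgeR called 0 of 16205 genes (0.0%; lowest adjusted p = 1), with 110 at an unadjusted p under 0.05. Without the PI8 libraries it again called 0, with 511 at an unadjusted p under 0.05 and a lowest adjusted p of 0.773. DESeq2 called 1, Socs2, a suppressor of cytokine signalling. It stood at 3.80 and 2.00 CPM at day 3 and at 5.08 and 19.5 CPM at day 9. The 9 genes past 2-fold in opposite ways, singled out by their values, are therefore given without a call. Tnfsf18, a ligand of the TNF family, stood at 5.71 and 47.0 CPM at day 3 and at 88.8 and 16.5 CPM at day 9. Penk, the enkephalin precursor, stood at 37.1 and 13.9 CPM and then at 36.6 and 206 CPM, and Gata6, a transcription factor of mesoderm and endoderm, at 12.01 and 48.39 CPM and then 24.7 and 11.6 CPM. The growth factor Fgf2, S100a4, Ccl8 and Glrx were lower at day 3 and higher at day 9 in the hCD2 line, and Gxylt2 and Ly6c1 the reverse. The RNA quality transcripts also moved, with a list median of 0.01 at day 3 and -2.01 at day 9. Among cells of at least 10000 UMIs their day 9 median was -1.77, beside medians of -1.28 and 0.27 for the interferon list, and their part in the result was not tested.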

How the data were processed

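Single-cell RNA of the 10x Chromium 3' v3.1 assay was used. The authors deposited a table of raw UMI counts (genes by cells), made with Cell Ranger 6.0.1, Seurat (version not given in the sources used here) and mm10, per the submitters' processing notes. All 5163 cells of the 4 libraries passed the filters used (minimum 500 UMIs, minimum 200 genes, no more than 20% of counts from 13 mitochondrial genes). Scrublet (scanpy 1.11.5) marked 33 cells as doublets, which stayed in except in an alternative.

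Counts were summed per library (totals of 29149395 to 89394715 UMIs) and tested with edgeR 4.0.16 in R 4.3.3 (quasi-likelihood, TMM scaling, filterByExpr, terms for day and line, Benjamini-Hochberg adjustment, call at 0.05, two-sided). This fit has 1 residual degree of freedom, so the p asks whether a difference held at both days. Standard errors were derived from its F statistic, as the absolute log2 difference divided by the square root of F. DESeq2 1.42.0 was an alternative. Levels are CPM with exact Poisson 95% intervals, shares have exact Clopper-Pearson intervals, and both cover counting error only, as does the floor of 3 counts. Single-day differences use log2 of CPM + 0.1. The pairing is by day from the labels, and there are no replicate numbers. Scripts were tested on simulated data. Promoter letters came from RefSeq and gene positions from GENCODE M21, both GRCm38.

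Members and gene lists were chosen with earlier results of these data known. Named genes were to be called genes with the largest differences, the most abundant members of each list where fewer than 2 were called, and Spib, Irf8, Ikzf2, Ptprc, Clec9a, Cd2 and Xist, and other genes were chosen after their values were seen. Paralogs (H2, Ifit, Ccl8 and Gm42418) are uncertain. Listed genes Mx1, Mx2, Clec7a, Cd58, H2-Ea, H2-Ea-ps, Entpd4b, Myod1 and Myf5 were not analysed here, and a further listed gene is not reported here.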

Additional observations from a re-analysis of the deposited data

How the results depend on the processing

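The count of 3 called genes was 12 without the filter on low counts, 81 by DESeq2, 5 in the pooled fit of 12 libraries (which leaves out PI8, and with it the library labelled PI8 day 9 that differs from its line), 1 with library totals thinned to the shallowest, and 0 in the pooled fits of 14 and 16 libraries, at day 3 alone, at day 9 alone and in Xist cells without Y-linked UMIs (chosen after seeing the data). With any single library left out, in the pooled fit of 14, it was 0 to 0, which says nothing of stability because that fit called 0 with all libraries. Without the day term, which is the only pairing and replicate block the labels give, it was 0. The count was 2 or 3 under DESeq2's size factors, in the pooled fit of 8 libraries, without doublets, in cells of at least 10000 UMIs, in thinned cells and in cells with an Ikzf2 UMI. The cause of these shifts was not tested. Over all alternatives Gt(ROSA)26Sor lay at -4.29 to -3.92 and did not reverse. The day comparison gave 1 gene by DESeq2 against 0. With a mean of at least 50 CPM, the genes 2-fold apart were 63 at day 3, 25 at day 9 and 5 the same way at both days.

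Directions reversed for Xist in Xist cells without Y-linked UMIs (-0.0376), for Spib (-0.14) and Irf8 (-0.18) at day 9 alone and for Irf8 in thinned cells (-0.0287). Leaving out single libraries gave -2.33 to 0.86 for Ptprc, -0.45 to 0.73 for Spib, -1.02 to 0.93 for Irf8 and -0.76 to 0.89 for Ikzf2; these fits set a lone library against both days of the other line through the day term of the other sets, so they are not same-day differences and show no reversal. Depth limits Clec9a, Cd2 and the Y-linked genes, which rest on few or 0 counts in a line.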
